A study of Mus musculus with 24 samples.

Results

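The genes described here encode the scaffolds, substrate receptors and activating factors of cullin-RING ubiquitin ligases: the cullins (Cul), the Dcun1d genes, the Kelch-like (Klhl) genes and the F-box genes of the Fbxl, Fbxo and Fbxw classes. They were picked by gene symbol alone, with 1 probe a gene, the one with the highest mean of the deposited values. This gave 118 of the 19532 genes with a symbol on the array: 8 Cul, 5 Dcun1d, 35 Klhl, 18 Fbxl, 33 Fbxo and 19 Fbxw genes. The symbol rule also took in Fbxl12os, the only noncoding member, which runs antisense to Fbxl12.

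A cullin-RING ligase is built on a cullin, a long scaffold that holds a RING protein and its ubiquitin-conjugating enzyme at one end and a substrate receptor at the other. Cul1 takes F-box proteins through the adaptor Skp1, Cul3 takes BTB proteins such as the Kelch-like family directly, and Cul4a and Cul4b take receptors through Ddb1. The ligase is switched on when the ubiquitin-like protein Nedd8 is joined to the cullin, a step that the Dcun1d proteins promote. Ubiquitin-dependent destruction of proteins runs the exit from meiosis and clears maternal proteins after fertilization, while the zygote still lives largely on mRNA made in the oocyte.

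Messenger RNA of single mouse cells was measured on 24 arrays. The cells were oocytes arrested at metaphase of the second meiotic division (MII, 0 h, n = 3) and 1-cell embryos 2 h (n = 3), 4 h (n = 4), 6 h (n = 3), 8 h (n = 3), 10 h (n = 4) and 12 h (n = 4) after a sperm was injected into the oocyte (intracytoplasmic sperm injection, ICSI). All cells are labelled as of the B6D2F1 strain, a hybrid, the injected sperm came from B6D2F1 males aged 8 to 12 weeks, and oocytes were held in culture medium before use. The mRNA of each cell was caught on oligo-dT beads and amplified by PCR, so a level counts mRNA whose poly(A) tail was caught, and whether tail length differed between times was not tested. No label gives a further treatment, the age of the oocyte donors or a batch, so the p-values measure only the spread between these cells.

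Levels are given as log2 intensity, calculated back from the score in each column. The most common level, 6.82, was taken as background, and near it a change is understated. Embryo arrays of 1 time resembled each other less than the oocyte arrays did, with correlations across genes of 0.813 to 0.916 in the embryo groups, against 0.932 to 0.938 in the oocytes. Intensities came in coarser steps on the embryo arrays, with group means of 0.646 to 0.846 units, against 0.507 units in the oocytes, and 4 embryo arrays, 4 h c, 6 h b, 8 h d and 10 h c, had steps over 1 unit. All 16 oocyte markers, among them Gdf9, Bmp15 and Zp2, averaged over 2 log2 units above background at each time. Of 10 measured cumulus and granulosa markers, 7 or 8 lay within 1 unit of background at each time, while Amh was at 12.68 to 13.37 in the embryo groups, against 12.46 in the oocytes. Of 6 measured blood cell markers, 1 to 3 lay over 2 units above background, among them Hbb-bt at 13.28 to 13.99 in the embryo groups, against 13.27 in the oocytes. The part of these cell types in the results was not tested. The mean of the 9 sperm markers was 8.76 to 9.52 in the embryos, against 8.37 to 8.60 in the oocytes. Of 5 markers of the 2-cell embryo, 4 averaged over 2 units above background at 12 h, against 0 at 0 h. The array number limits the precision of all values.

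Among all 118 members the levels moved little on balance. Of the 66 members over 2 log2 units above background on average, 34 were lower and 32 higher at 12 h than at 0 h. The median change of these 66 was -0.10, and that of the 7521 genes as far above background was -0.03. Members were well above background more often than other genes (55.9% against 38.5% of all genes). At 12 h, 3 members passed the threshold of a Benjamini-Hochberg adjusted p under 0.05 (limma), all of them lower, against 1.46% of all genes called and 1.05% called lower. At 8 h 3 members passed, where 0.845% of all genes were called: 2 were lower (0.451% of all genes) and 1 higher (0.394%). At 10 h 2 passed, both lower, where 0.707% were called. At an unadjusted p under 0.05, 28 members (23.7%) differed at 8 h and 28 at 12 h, against 13.4% and 13.5% of all genes. At 10 h 12 members (10.2%) did so, against 11.3% of all genes. Among the brighter genes (the upper 60% by mean) the 8 h and 12 h shares were 25.0% and 26.1% of the 92 members, against 14.6% and 17.9%.

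No member passed against the oocytes at 2, 4 or 6 h. At those times 0.102%, 0.0666% and 0.148% of all genes were called, so that a count of 0 in 118 lies near the background. By limma 13, 10 and 12 members had an unadjusted p under 0.05 at 2, 4 and 6 h (9.50%, 9.25% and 8.77% of all genes). With array weights 0, 2 and 3 members passed at these times, where that setting called 0.236%, 0.788% and 1.04% of all genes.

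**Figure D1:**
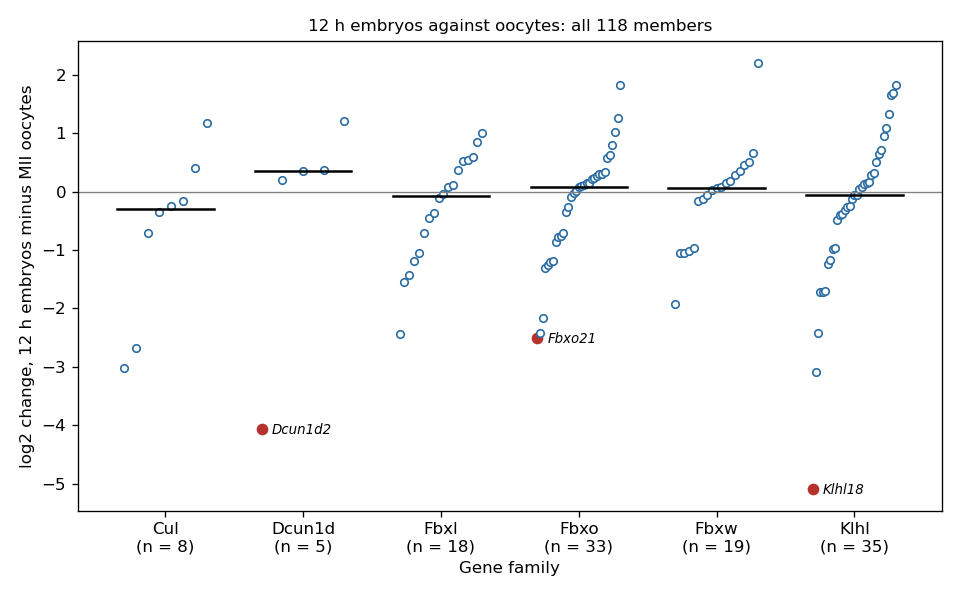
Log2 change of each of the 118 members in 12 h embryos minus MII oocytes (vertical axis), by gene family (horizontal axis), with a black line at each family's median. Red points passed the threshold (adjusted p under 0.05, limma); Klhl18, Dcun1d2 and Fbxo21 lie at -5.10, -4.07 and -2.50, while the family medians lie near 0.

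Klhl18 showed the largest change. It encodes a receptor of Cul3 ligases that in human cells promotes Aurora A activation at entry into mitosis. The 4 embryos of 12 h had log2 intensities of 7.52, 6.98, 7.32 and 6.94, against 12.06, 12.30 and 12.51 in the 3 oocytes. Every embryo of 12 h was thus within 1 unit of background, and no value of the groups overlapped. The difference was -5.10 (SE 0.74, adjusted p = 0.00104, limma).

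The fall of Klhl18 was spread over the course. The oocytes averaged 12.29 ± 0.22 (SD, n = 3). The means of the embryo groups were 10.26 (2 h), 10.40 (4 h), 8.47 (6 h), 8.28 (8 h), 7.91 (10 h) and 7.19 ± 0.28 (12 h, SD, n = 4). All 21 embryos lay below every oocyte, which held for 0.579% of all genes and for 3 members: Klhl18, Fbxo21 and Klhl12. No member had all 21 embryos above every oocyte, which held for 0.543% of all genes. At 8 h and 10 h the differences from the oocytes were -4.01 (SE 0.79, adjusted p = 0.0209) and -4.37 (SE 0.74, adjusted p = 0.00891). Without any 1 of the 3 oocyte arrays, or without 8 h array d, the 8 h call was lost (adjusted p of 0.0541 to 0.0815), and without oocyte array d the 10 h call (adjusted p = 0.0534). At 6 h the difference was -3.81 and missed the threshold (adjusted p = 0.0526), although 7 of 11 alternative settings other than leaving out an array called it.

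A decline was also present among the embryos alone, without the oocytes that the comparisons above share. Over the 21 embryos of 2 to 12 h the level of Klhl18 fell by 0.33 log2 units per hour (SE 0.063, adjusted p = 0.0107, limma), where 0.589% of all genes had a slope past the threshold. It was the only member with such a slope. A second probe of Klhl18, not used in the test, had log2 changes of -0.71, -0.86, -2.30, -3.24, -3.38 and -3.70 at 2, 4, 6, 8, 10 and 12 h. Both probes were lower at each of the 6 times.

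**Figure D2:**
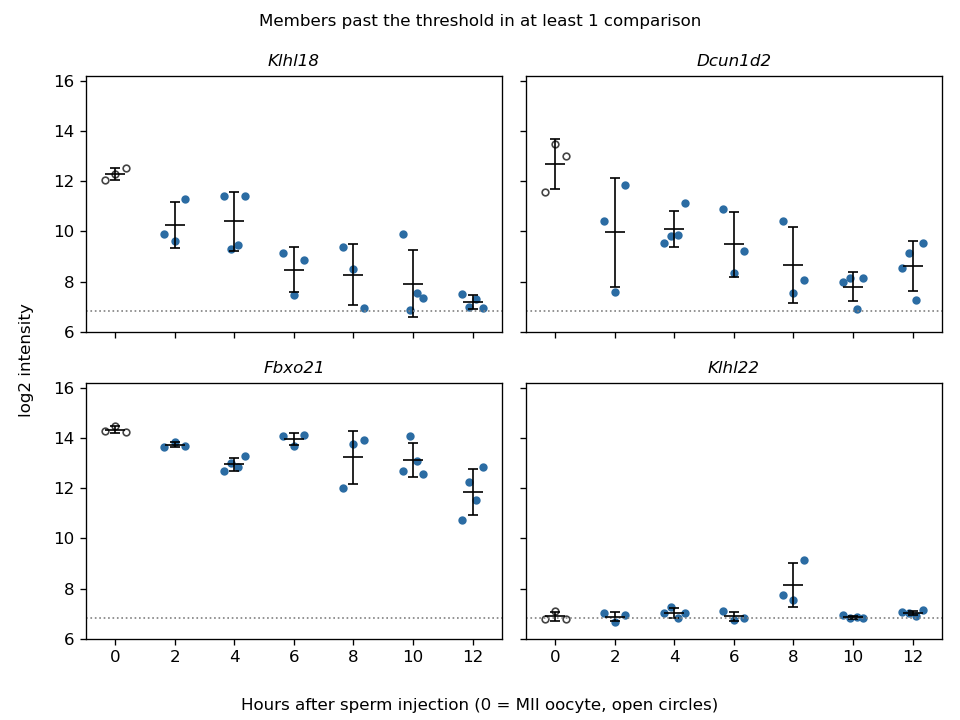
Log2 intensity (vertical axis) against hours after sperm injection (horizontal axis) for the 4 members past the threshold in any comparison. Points are single cells, open for MII oocytes, with mean and SD over 3 or 4 cells as black bars and background as a dotted line. Klhl18 and Dcun1d2 start at group means of 12.29 and 12.69 and end at 7.19 and 8.62, Fbxo21 is lowest at 12 h, and Klhl22 is raised at 8 h alone.

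Dcun1d2, a member of the family that promotes joining of Nedd8 to cullins, was lower at 8, 10 and 12 h. At 10 h the 4 embryos had 7.98, 8.14, 6.92 and 8.15, against 11.57, 13.50 and 13.00 in the oocytes. Of the 21 embryos, 20 lay below every oocyte, the exception being 2 h d at 11.84. The differences were -4.02 (SE 0.95, adjusted p = 0.0472) at 8 h, -4.89 (SE 0.89, adjusted p = 0.0118) at 10 h and -4.07 (SE 0.89, adjusted p = 0.0215) at 12 h. The size holds for 1 probe. The other probes, with means of 7.74 and 7.30 close to background, changed by 1.26 and -1.87 at 12 h, and with the mean of all probes of a gene the 12 h difference was -1.56 and missed the threshold (adjusted p = 0.107). Without the oocyte arrays c or d the 12 h call was also lost, at adjusted p = 0.124 and 0.0977, as it was without 12 h array c (adjusted p = 0.066), and the 10 h call without oocyte array c or d (adjusted p = 0.0752 and 0.0607). The 8 h call was lost in 19 of 35 alternative settings.

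The other Dcun1d genes gave values of both signs and 0 of 4 passed in any test. Dcun1d3, whose product is anchored at membranes, had 13.11, 13.01 and 13.13 at 2 h, against 11.00, 11.92 and 10.83 in the oocytes. These groups did not overlap, as was so, in the higher direction, for 8.22% of all genes at 2 h and 6.78% of the members. A dimmer probe of Dcun1d3 changed by -0.83 at 2 h, against 1.83 for the probe used. The 12 h difference of Dcun1d3 was 1.22 (95% interval -0.36 to 2.79), and the dimmer probe changed by -0.19. Dcun1d1 and Dcun1d5 changed by 0.21 and 0.36 at 12 h, with intervals of -0.45 to 0.87 and -0.63 to 1.36. Other probes well above background went the other way at 12 h, with -0.83 and -0.17 for Dcun1d1 and -0.09 for Dcun1d5, and with the mean of all probes Dcun1d1 changed by -0.26. Dcun1d4, whose embryos ranged from 6.62 to 11.90, changed by 0.37 (interval -1.60 to 2.33).

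Of the 8 cullin scaffolds, 0 passed in any test, but Cul3, Cul4a and Cul9 passed in some alternative settings. Cul3, the scaffold of the Kelch-like receptors, had 11.70, 9.02, 8.71 and 12.13 at 12 h, against 13.31, 12.81 and 13.09 in the oocytes. The groups did not overlap, as was so, in the lower direction, for 18 members (15.3%) and 7.24% of all genes, but the 12 h cells spread over more than 3 units. The difference was -2.68 (SE 0.76, adjusted p = 0.0841), and another bright probe of Cul3 changed by -2.43. Cul3 passed as lower in 3 of 35 alternative settings: with array weights (adjusted p = 0.0212), with the replicate block (adjusted p = 0.049) and without 12 h array d (adjusted p = 0.0332).

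Cul4a and Cul4b, paralogs that carry the Ddb1-linked receptors, gave unlike values. Cul4a had 8.05, 8.09, 7.62 and 12.18 at 12 h, against 11.71, 11.77 and 12.53 in the oocytes, so that 3 of 4 embryos were far below the oocytes and 12 h d was level with them. Its difference of -3.02 missed the threshold (adjusted p = 0.109), and it passed at adjusted p = 0.00682 without 12 h array d and at adjusted p = 0.0293 with array weights. Another bright probe of Cul4a changed by -1.09. Cul4b had 14.12, 13.84, 13.60 and 13.45 at 12 h, against 14.13, 13.90 and 13.67 in the oocytes, a difference of -0.15 (95% interval -0.75 to 0.45). Whether the paralogs differed in their change was not tested.

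The remaining scaffolds lay closer to the oocyte level at 12 h than Cul3 and Cul4a did. Cul1, the scaffold of F-box ligases, had 14.13, 13.98, 13.97 and 14.15 at 12 h, against 14.71, 14.24 and 14.25 in the oocytes. The difference was -0.34 (95% interval -0.78 to 0.10), and its other probes changed by -0.16 and -0.54. These groups did not overlap, as was so, in the lower direction, for 7.24% of all genes. Cul7, which pairs with Fbxw8, changed by -0.24 (interval -0.73 to 0.25), while a dimmer probe changed by 0.47 and the mean of its probes by 0.12. Cul2 and Cul5 take receptors through elongins. Cul2 changed by -0.70 at 12 h (interval -2.07 to 0.67) and by -1.77 at 8 h. Cul5 changed by 1.17 at 12 h (interval 0.06 to 2.29, adjusted p = 0.338), with 18 of 21 embryos above every oocyte, while its other probes changed by -0.55, 0.25 and 0.55. Cul9, whose product is linked to p53, was near background in the oocytes, with 8.05, 10.21 and 10.90 at 8 h, against 7.03, 7.58 and 7.53 in the oocytes. Its 8 h difference was 2.34, and it passed as higher with array weights (adjusted p = 0.0203), without the mean-variance trend (0.0484), with the mean of all probes (0.0475), without 8 h array a (0.00692) and without 10 h array c (0.048).

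**Figure D3:**
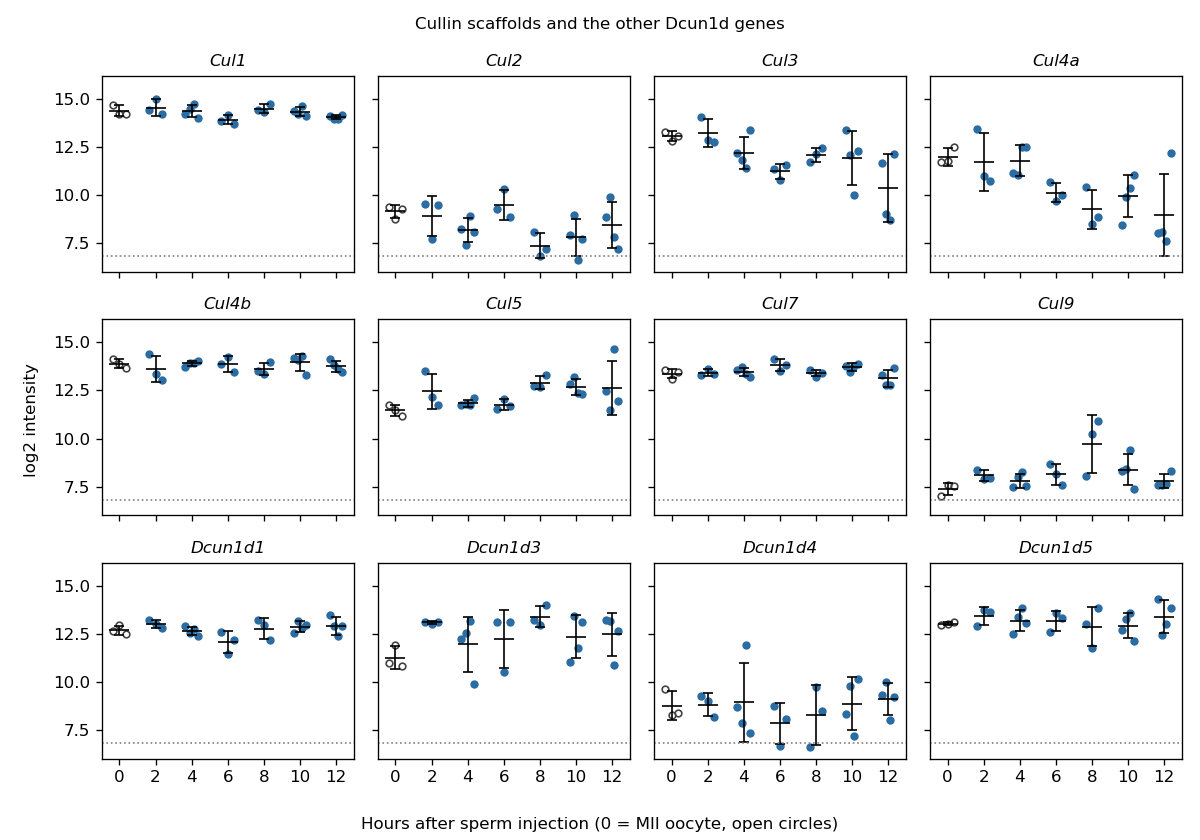
Log2 intensity (vertical axis) against hours after sperm injection (horizontal axis) for the 8 cullins and the other 4 Dcun1d genes. Points are single cells, open for MII oocytes, with mean and SD over 3 or 4 cells and background as a dotted line. Cul1, Cul4b and Cul7 stay within 1 unit of their oocyte means at every time, while the 12 h cells of Cul3 and Cul4a span 8.71 to 12.13 and 7.62 to 12.18.

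Among the Kelch-like genes, receptors of Cul3, 1 of 35 passed at 12 h (Klhl18) and 16 lay within 1 unit of background on average. Of the 14 well above it, 9 were lower and 5 higher at 12 h, with a median of -0.68. Klhl24, linked in human skin to keratin turnover, had 7.60, 10.59, 9.08 and 8.08 at 12 h, against 12.87, 11.82 and 11.10 in the oocytes. The difference was -3.09 (SE 0.95, adjusted p = 0.115), but another bright probe of Klhl24 changed by -0.09. With array weights the 12 h difference of Klhl24 passed (adjusted p = 0.0274). Klhl9 and Klhl13 act together on Aurora B in dividing human cells. Klhl9 had 12.13, 9.95, 12.01 and 11.49 at 12 h, against 12.80, 13.36 and 13.16 in the oocytes, with no overlap, a difference of -1.71 (95% interval -2.68 to -0.74, adjusted p = 0.0682). Klhl9 passed as lower at 12 h among the upper 60% of genes (adjusted p = 0.0478) and with array weights (adjusted p = 0.012). Its second probe changed by -0.56. Klhl13 changed by -1.71 too, with a wider interval of -3.56 to 0.14.

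Klhl12 acts in human cells on Dishevelled and on COPII vesicle coats. On the probe used it was lower in all 21 embryos than in every oocyte. At 12 h it had 7.52, 13.68, 12.97 and 13.77, against 14.44, 14.46 and 14.31 in the oocytes, so that 12 h a lay apart from the other 3 cells. The difference of -2.42 missed the threshold (adjusted p = 0.229). Another bright probe changed by -0.41, 0.01, -0.13, 0.24, -0.30 and -0.39 at 2, 4, 6, 8, 10 and 12 h. Klhl8 had 15.24, 14.91, 13.75 and 15.32 at 12 h, against 15.28, 14.88 and 15.45 in the oocytes (difference -0.39, 95% interval -1.07 to 0.29).

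Klhl22 was the only member called higher in any comparison, and only at 8 h, where 0.394% of all genes were called higher. In human cells it acts with Cul3 on the mitotic kinase Plk1. The 8 h embryos had 7.73, 7.55 and 9.14, against 6.77, 7.11 and 6.80 in the oocytes, which lie at background. The difference was 1.24 (SE 0.28, adjusted p = 0.0367). Without 8 h array d, the brightest and 1 of the 4 with coarse steps, it was 0.75 and missed the threshold (adjusted p = 0.0727). Each of the 3 settings without 1 oocyte array lost the call as well (adjusted p of 0.0803 to 0.129), and a second probe changed by -0.11.

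Other Kelch-like genes had higher values at 12 h that did not pass. Klhl30 had 11.46, 9.77, 10.75 and 11.97 at 12 h, against 8.83, 8.87 and 9.76 in the oocytes, without overlap (difference 1.83, SE 0.50, adjusted p = 0.0669). It passed in 4 of 35 alternative settings: with array weights, without the mean-variance trend, with the mean of all probes and without 12 h array b. Klhl25, which acts on a translation repressor in human cells, changed by 1.69 (adjusted p = 0.23), with another, dimmer probe at -1.39. Klhl3, known for the kidney, Klhl40, known for skeletal muscle, and Klhl6, known for B cells, changed by 1.66, 1.33 and 1.09, with adjusted p of 0.391, 0.321 and 0.371. The 12 h cells of Klhl3 were split, at 6.97, 11.17, 11.83 and 7.39, against 7.13, 8.08 and 7.84 in the oocytes. Klhl10, known from spermatids, Klhl20 and Klhl21 averaged 7.43, 9.03 and 7.99 in the oocytes and changed by 0.65, -0.48 and -1.23 at 12 h.

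Of the 33 Fbxo genes, only Fbxo21 passed. It encodes an F-box protein that in human cells directs the destruction of the differentiation inhibitor EID1. At 12 h it had 10.73, 12.25, 11.53 and 12.86, against 14.29, 14.49 and 14.26 in the oocytes. The difference was -2.50 (SE 0.45, adjusted p = 0.0051), and other bright probes changed by -1.93 and -0.84. On the probe used, all 21 embryos lay below every oocyte. The other bright probes changed by -1.14 and 0.12 at 2 h and by -1.54 and 0.42 at 4 h. By the F-test over the 7 times Fbxo21 was called (adjusted p = 0.0401) with Klhl18 (adjusted p = 0.00598). This test called 1.20% of all genes. The F-test call of Fbxo21 was lost in 18 of 34 alternative settings, among them each that left out 1 oocyte array or 12 h array a, b or c, with adjusted p up to 0.104.

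Fbxo21 had its lowest group mean at 12 h. The oocytes averaged 14.34 ± 0.12 (SD, n = 3), and the embryo groups 13.73 (2 h), 12.97 (4 h), 13.97 (6 h), 13.24 (8 h), 13.12 (10 h) and 11.84 ± 0.92 (12 h, SD, n = 4). Fbxo25 likewise had its lowest group mean at 12 h, with 10.33, 8.60, 9.11 and 8.95, against 10.90, 12.34 and 11.78 in the oocytes. Its difference was -2.42 (adjusted p = 0.118), and a dimmer probe changed by -2.56. With array weights Fbxo25 passed at 12 h (adjusted p = 0.0243). Fbxo30, known for muscle wasting, had 7.06, 7.75, 6.72 and 7.35 at 12 h, against 8.48, 9.56 and 10.09 in the oocytes. Its difference was -2.16 (adjusted p = 0.109), with another probe at -2.06. Fbxo30 passed at 12 h with array weights (adjusted p = 0.0235) and with the mean of all probes (adjusted p = 0.0485).

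Fbxo5, an inhibitor of the anaphase-promoting complex, stayed near the oocyte level. It had 13.26, 12.87, 13.88 and 12.30 at 12 h, against 13.20, 12.79 and 12.96 in the oocytes, a difference of 0.09 (95% interval -0.80 to 0.99). Fbxo11 changed by 0.31 and Fbxo7, linked to parkinsonism, by 0.31. Fbxo15, a gene known from embryonic stem cells, changed by -1.31 (adjusted p = 0.734), with 17 of 21 embryos below every oocyte and 3 above. Fbxo32, a muscle-wasting gene, had 9.80, 9.81, 11.29 and 11.80 at 12 h, against 8.41, 8.78 and 9.34 in the oocytes. Its difference was 1.83 (adjusted p = 0.134), and it passed with array weights (adjusted p = 0.0408). Fbxo36 changed by 1.27 from near background.

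Of the 18 Fbxl genes, 0 passed in any test. Fbxl12 had 7.44, 8.80, 8.06 and 8.96 at 12 h, against 10.74, 10.58 and 10.92 in the oocytes. Its difference was -2.43 (adjusted p = 0.253). At 10 h its cells ranged from 8.85 to 12.58, so that it did not stay low through the course. Fbxl21, a clock gene, was at 7.41 in the oocytes and changed by -0.44.

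The Fbxw class holds widely conserved receptors and a cluster of closely related mouse genes. Among the conserved receptors, Fbxw11, a beta-TrCP receptor, had 10.15, 8.50, 11.37 and 8.01 at 12 h, against 11.41, 11.42 and 11.47 in the oocytes. Its embryos lay below every oocyte in 20 of 21 cells, but spread from 6.83 to 11.91, and the 12 h difference of -1.92 (95% interval -4.25 to 0.40) missed the threshold (adjusted p = 0.48). Fbxw7, which targets cyclin E, changed by -1.05 (interval -2.49 to 0.40), without overlap of the 12 h and 0 h cells, and another probe of it changed by -2.86. Fbxw2 changed by 0.35.

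The clustered Fbxw genes lie side by side on chromosome 9, where RefSeq (assembly GRCm38.p6) lists 15 of them with 0 other protein-coding genes between. Of these, 11 were measured: Fbxw13, Fbxw14, Fbxw15, Fbxw16, Fbxw18, Fbxw19, Fbxw21, Fbxw22, Fbxw24, Fbxw26 and Fbxw27. The 250 bases upstream of the gene start were at hand for 8 of the 11, from RefSeq (GRCm38.p6). Global alignments of the 28 pairs gave identities of 63.9% to 92.9%, with a median of 84.0%. The upstream sequences of 4 of them are shown as examples. Likeness of the mRNAs was not measured, and a link of upstream likeness to the levels below was not tested. Capitals mark the longest run present in all 8, of 18 bases, found by comparing the sequences and with no known factor assigned to it.
Fbxw14 (chr9:109287677-109287926, minus strand): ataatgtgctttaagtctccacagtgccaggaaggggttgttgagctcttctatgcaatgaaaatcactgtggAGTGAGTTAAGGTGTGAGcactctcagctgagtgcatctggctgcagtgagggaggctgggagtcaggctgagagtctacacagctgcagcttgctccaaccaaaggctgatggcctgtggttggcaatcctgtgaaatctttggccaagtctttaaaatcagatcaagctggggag
Fbxw15 (chr9:109568263-109568512, minus strand): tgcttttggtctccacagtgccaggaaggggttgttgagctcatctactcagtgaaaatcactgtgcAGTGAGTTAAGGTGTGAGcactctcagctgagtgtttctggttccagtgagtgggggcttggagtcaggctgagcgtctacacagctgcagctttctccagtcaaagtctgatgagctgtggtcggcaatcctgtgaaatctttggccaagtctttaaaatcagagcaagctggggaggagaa
Fbxw21 (chr9:109162023-109162272, minus strand): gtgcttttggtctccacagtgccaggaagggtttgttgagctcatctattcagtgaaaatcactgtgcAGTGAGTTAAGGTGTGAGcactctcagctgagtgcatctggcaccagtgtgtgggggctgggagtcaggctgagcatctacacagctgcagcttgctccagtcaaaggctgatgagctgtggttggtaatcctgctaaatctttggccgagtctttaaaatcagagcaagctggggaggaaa
Fbxw24 (chr9:109626060-109626309, minus strand): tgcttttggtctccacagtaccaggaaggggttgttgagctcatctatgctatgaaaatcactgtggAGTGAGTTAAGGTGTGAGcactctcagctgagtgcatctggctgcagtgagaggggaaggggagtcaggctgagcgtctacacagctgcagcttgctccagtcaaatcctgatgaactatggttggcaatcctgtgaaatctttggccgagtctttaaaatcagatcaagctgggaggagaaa

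The run was found, on either strand, in the upstream windows of 10 of 27025 genes in the table (0.037%), all Fbxw genes of chromosome 9. These include the 8 genes it was taken from, which hold it by definition. It begins 183 bases before the annotated start in Fbxw15 and Fbxw24, 182 in Fbxw21 and 177 in Fbxw14. Motifs known from oocyte and general promoters were searched on both strands. The E-box CANNTG was present in 8 of 8 windows, against 69.3% of all genes, and CCAAT in 1 of 8, against 37.5%. The NOBOX element TAATTG (8.3% of all genes) and the TATA box TATAAA (14.3%) were in 0 of 8. The 8 windows are of closely related genes, so they are not 8 independent cases, and enrichment was not tested. The shares of all genes also count any window of a gene, those of the 8 only 1 window a gene.

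None of the 11 clustered genes passed in any of the 8 tests, and several had narrow intervals around 0. Fbxw22 had 15.65, 15.51, 15.28 and 15.25 at 12 h, against 15.51, 15.16 and 15.40 in the oocytes, a difference of 0.06 (95% interval -0.21 to 0.33). Fbxw14 had 15.50, 15.57, 15.71 and 15.63 at 12 h, against 15.57, 15.25 and 15.51 in the oocytes, a difference of 0.16 (interval -0.05 to 0.37). Its other probes changed by -0.15 and 0.33.

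Fbxw27 and Fbxw21 lay as close to their oocyte levels. Fbxw27 had 14.66, 14.70, 14.78 and 14.47 at 12 h, against 14.85, 14.47 and 14.78 in the oocytes, a difference of -0.05 (interval -0.43 to 0.33). Fbxw21 changed by -0.16 (interval -0.60 to 0.27), although a dimmer probe of it changed by -1.22. Both had 12 h and 0 h cells that overlapped. Fbxw26 changed by 0.19 (interval -0.69 to 1.07).

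Fbxw24 was slightly higher in most embryos. It had 13.88, 13.77, 13.98 and 13.60 at 12 h, against 13.61, 13.29 and 13.16 in the oocytes, and 18 of 21 embryos lay above every oocyte. The 12 h difference was 0.45 (adjusted p = 0.369), and with array weights the differences at 4, 8 and 10 h, 0.87, 0.81 and 0.84, passed (adjusted p = 0.0272, 0.0321 and 0.00802). Fbxw15 had 12.15, 11.49, 11.01 and 10.40 at 12 h, against 8.55, 9.40 and 9.20 in the oocytes, without overlap, which in the higher direction was the case for 13 members (11.0%) and 12.0% of all genes. Its difference of 2.22 was the largest positive one of the 118 members and did not pass (adjusted p = 0.271), with 14 of 21 embryos above every oocyte and 4 below.

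The other clustered genes varied more between cells. Fbxw18 ranged from 8.85 to 12.67 at 12 h, against 11.80 to 12.49 in the oocytes, and from 7.93 to 10.66 at 6 h, below the oocytes. Fbxw19 had 13.11, 11.34, 11.32 and 12.63 at 12 h, against 13.14, 12.92 and 13.26 in the oocytes (difference -1.01, interval -2.34 to 0.33). Fbxw16 and Fbxw13 changed by 0.66 and 0.51, Fbxw13 from near background. Whether a probe of 1 of these genes also binds mRNA of its relatives was not tested, since probe sequences were not used here.

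**Figure D4:**
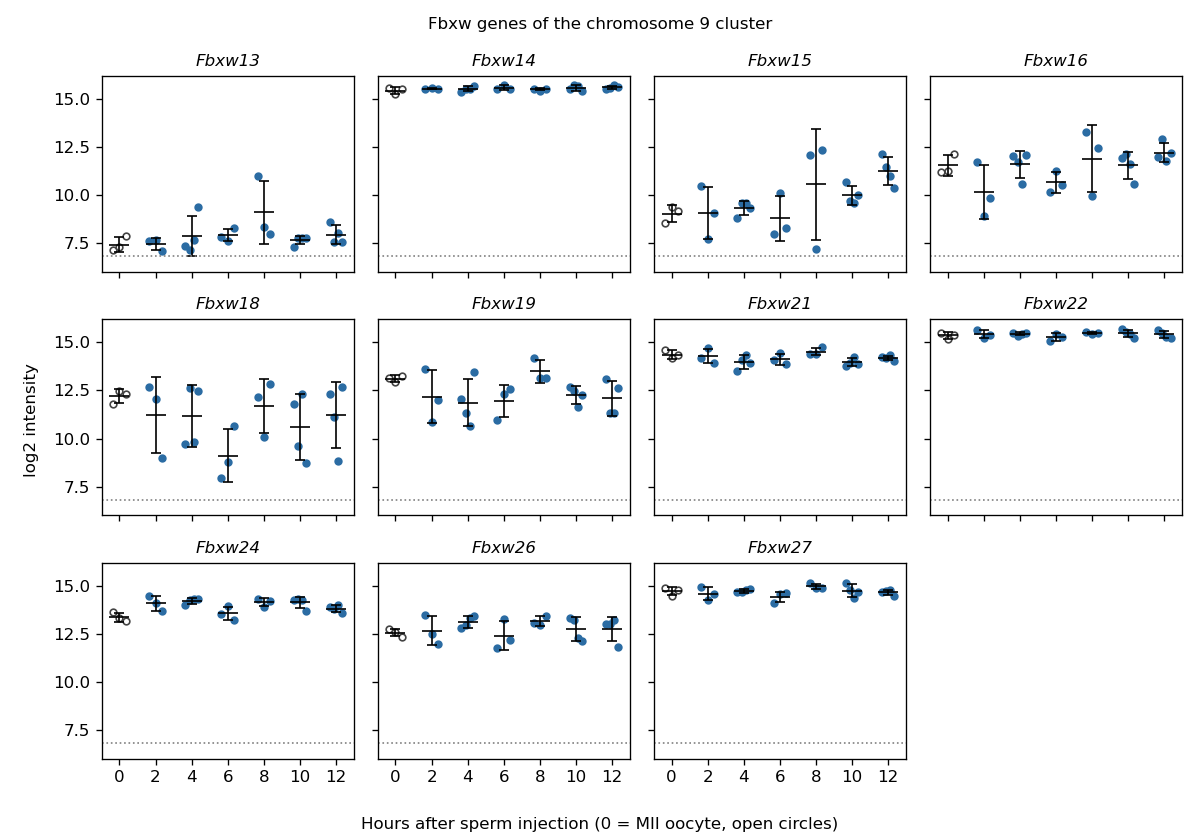
Log2 intensity (vertical axis) against hours after sperm injection (horizontal axis) for the 11 measured Fbxw genes of the chromosome 9 cluster. Points are single cells, open for MII oocytes, with mean and SD over 3 or 4 cells and background as a dotted line. Fbxw14, Fbxw22 and Fbxw27 stay within 1 unit of their oocyte means, Fbxw18 and Fbxw19 scatter between embryos, and the 12 h cells of Fbxw15, at 10.40 to 12.15, lie above its oocytes.

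Of 73 further symbols listed for genes that work with these ligases (adaptors, RING subunits, neddylation enzymes, COP9 signalosome subunits and other receptors), 69 were measured. At 12 h 1 of the 69 was higher, 1 was lower and 67 did not pass, with a median change of -0.05. Of all genes 1.46% were called at 12 h, 1.05% as lower, so that a few calls in a list of 69 lie near the background. Eloc, elongin C, the adaptor of Cul2 and Cul5 ligases, rose to 12.25 ± 0.62 (SD, n = 4) at 12 h, against 9.50 ± 0.12 (SD, n = 3) in the oocytes (difference 2.76, SE 0.63, adjusted p = 0.028). Kctd5, a BTB adaptor of Cul3, fell to 14.41 ± 0.42 at 12 h, against 15.27 ± 0.17 in the oocytes (difference -0.85, SE 0.20, adjusted p = 0.03), and was lower at 10 h as well (adjusted p = 0.0477). At 2, 4, 6 and 8 h 0 of the 69 passed. Among the embryos alone Dcaf7, a Ddb1-linked receptor, had a slope of 0.16 per hour (SE 0.038, adjusted p = 0.0428). Of all genes 0.707% were called at 10 h, and 0.589% had a slope past the threshold. Other probes and alternative settings are not given here for Eloc, Kctd5 and Dcaf7.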

How the data were processed

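The deposited values are 1 score per probe and array for 41174 probes on 24 arrays, running from 0 to 4.57; limma is named, per the submitters' processing notes, and no source used here gives the scanner, the background correction or the scale. The deposited columns have near-identical distributions (medians 1.16 to 1.18). Where 2 tied probes fall midway between neighbouring levels, the midpoint shows the curvature of the scale: 20 midpoints with gaps of 0.001 to 0.02 followed the doubly applied natural log of intensity, divided by 0.2247 (largest residual 0.0032, curvature 1.12 to 2.68). Scores were turned back into log2 intensity (5.68 to 15.86). On arrays simulated with this same kind of scale the largest error of this step was 0.0073 log2 units. That simulation assumed the scale, so it cannot show whether the deposited scores follow it. The size of the intensity unit rests on this model. The planned test assumed log2 values, and the deposited scores as they are were an alternative.

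The platform annotation gave 1 symbol for 32664 probes, and 32524 matched RefSeq by Entrez identifier with 0 symbols changed. Of the 118 members 69 had more than 1 probe, and 1 F-box gene is not reported here. limma 3.58.1 in R 4.3.3 (lmFit, eBayes with trend) was fitted to all 19532 genes and 24 arrays as 7 group means, with 6 two-sided contrasts against 0 h, a moderated F-test, and a slope over the 21 embryos; p-values were adjusted over all genes. In simulated data of 19532 genes, 12 h against 0 h recovered 18%, 48% and 80% of changes of 1, 2 and 4 log2 units, with 11 false calls. No 2 arrays were copies (smallest mean difference 0.51 log2 units). Members and lists were chosen with earlier results of these data known. Named are all members that passed in any test, the 10 largest falls and 10 largest rises at 12 h, all Cul and Dcun1d genes, members with textbook roles and the clustered Fbxw genes; other probes over 1 log2 unit above background are given where they went the other way at 12 h or changed far less. Intervals are 95% and come from the same fit. The labels name digoxigenin for sample cDNA in the protocol and biotin in the label field, so the channel behind each value is not settled. Alternatives covered the trend, dim genes, array weights, groups in the fit, probes, scale, centring, added intensity, a replicate block and each array left out.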

Additional observations from a re-analysis of the deposited data

Results flagged for a closer look

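Members that passed or were among the 10 largest falls or rises at 12 h gave 63 groups of 4 cells. These were examined for a single cell far from the other 3, and 4 were found. Chance gives about 5% of groups. The other named members were not examined in this way. Cul4a in 12 h replicate d was at 12.18, against 7.62 to 8.09 in the other 3 cells. Klhl12 in 12 h replicate a was at 7.52, against 12.97 to 13.77. Dcun1d2 in 10 h replicate c, an array with coarse intensity steps, was at 6.92, against 7.98 to 8.15. Cul5 in 4 h replicate d was at 12.11, against 11.73 to 11.77, a gap that is small in size.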

How the results depend on the processing

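The 12 h call of Klhl18 held in all 35 alternative settings (highest adjusted p = 0.00914), its slope in all 31 and its F-test in all 34; those of Fbxo21 and Dcun1d2 at 12 h held in 34 and 30 of 35. Of the members that passed or were among the 10 largest falls or rises at 12 h, none turned direction there in any setting. Among the other named members, the mean of all probes turned Dcun1d1 (-0.26, against 0.21) and Cul7 (0.12, against -0.24), centring turned Fbxw8, and leaving out 1 array turned Fbxl12os, Fbxo5, Fbxo7, Fbxw2, Fbxw22, Fbxw27, Fbxw8 and Klhl20. Counts of members called moved as follows. With array weights there were 2, 3, 7, 4 and 14 at 4, 6, 8, 10 and 12 h, and 6 by the F-test, where this setting called 0.788%, 1.04%, 3.01%, 4.60%, 5.01% and 3.09% of all genes; the 14 (11.9% of members) at 12 h were 11 lower and 3 higher. Without the mean-variance trend there were 1 at 6 h, 4 at 8 h, 5 at 12 h and 1 by the F-test. That setting called 0.220%, 0.911%, 2.06% and 1.34% of all genes there. With the spread taken from the 2 compared groups alone there were 0 at 8 h, 3 at 10 h and 1 at 12 h. Of all genes 0.0922%, 0.640% and 0.860% were called there. With the mean of all probes there were 1 at 6 h, 5 at 12 h, 3 by the F-test and 2 with a slope. The shares of all genes were 0.159%, 1.90%, 1.39% and 0.855%. Among the upper 60% of genes there were 1, 2, 3 and 4 at 6, 8, 10 and 12 h, 3 by the F-test and 2 with a slope. There 92 members were tested, and 0.247%, 0.836%, 1.37%, 3.02%, 1.92% and 1.52% of the genes tested were called. Centring on the median and adding 20 or 50 intensity units each gave 1 at 6 h, Klhl18. These settings called 0.174%, 0.179% and 0.174% of all genes there. Adding 50 units also gave 4 at 8 h (0.937% of all genes) and 3 by the F-test (1.23%). The deposited scores gave 2 at 8 h (0.742%). Leaving out the 4 arrays with coarse steps was an alternative chosen after seeing the data. It gave 0 at 8 h, 2 at 10 h, 3 at 12 h, 1 by the F-test and 2 with a slope. Of all genes, fewer were also called at 8 h, at 10 h and by the F-test than with no array left out. Slightly fewer of all genes had a slope past the threshold, and more were called at 12 h. Without any 1 oocyte array the 8 h count was 0 and the F-test count 1; without oocyte arrays c and d the 10 h count was 1 and 0; without 12 h arrays b or d the 12 h count was 5. Leaving out 1 array gave 0 to 1 at 2 h, 0 at 4 h, 0 to 1 at 6 h, 0 to 4 at 8 h, 0 to 3 at 10 h, 2 to 5 at 12 h, 1 to 4 by the F-test and 1 to 2 with a slope. Shares of all genes with 1 array left out are not given here. The replicate block gave 0, 0, 0, 3, 2 and 4 at 2 to 12 h (the fourth at 12 h was Cul3), 2 by the F-test and 1 with a slope. It called 0.906%, 0.497% and 1.38% of all genes at 8, 10 and 12 h, 0.901% by the F-test and 0.604% with a slope. The labels do not say whether the letters pair the cells. Same-letter arrays of different times had a median correlation of deviations of 0.012 (-0.126 to 0.176). The median for arrays of unlike letters was -0.008. Signal over background limits the 34 members within 1 log2 unit of it, whose changes are understated.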
